A study of Mus musculus with 6 samples.

Results

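The 6 conventional actin genes of the mouse, Acta1, Actc1, Acta2, Actg2, Actb and Actg1, were followed across mouse embryonic fibroblasts (MEF), muscle, and fibroblasts converted towards muscle by direct reprogramming, here called transdifferentiated cells. The members were taken by symbol from a count table of 55286 gene symbols, and all 6 were present and passed the filter on low counts. Each of the 3 groups had 2 libraries of polyadenylated RNA, and the labels used here spelled out no allele, transgene or drug for any of them. The sample descriptions read STauMEF for MEF, SEndomuscle for muscle and SiMuscle for transdifferentiated cells. What Tau, Endo and i stand for was not stated. The converting factor, the time after conversion, the age and source of the muscle, and whether replicates were separate cultures or animals were not stated in the sources used here. With that unknown, p-values measure the spread between these libraries, which may be technical.

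Actin is the protein of thin filaments in muscle and of microfilaments in every other cell. Mammals make 6 closely related isoforms from separate genes. ACTA1 (skeletal) and ACTC1 (cardiac) build the sarcomere, ACTA2 and ACTG2 are the smooth muscle isoforms, and ACTB and ACTG1 are the cytoplasmic isoforms found in nearly all cells. During muscle formation the cytoplasmic isoforms are known to give way to the sarcomeric ones, and embryonic skeletal muscle is known to make the cardiac isoform before the skeletal isoform prevails. ACTA2 is also the classical marker of myofibroblasts, and cultured fibroblasts commonly make it.

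All 6 genes lie on the minus strand of different chromosomes in the mm10 assembly, by the GENCODE annotation. Acta1 was at chr8:123891769-123894751 (7 exons), Actc1 at chr2:114047282-114053548 (7 exons) and Acta2 at chr19:34241090-34255590 (9 exons). Actg2 was at chr6:83512905-83536265 (9 exons), Actb at chr5:142903115-142906754 (6 exons) and Actg1 at chr11:120345690-120348542 (6 exons). The coding sequences held 377 codons in Acta1, Actc1 and Acta2, 376 in Actg2, and 375 in Actb and Actg1. Over 1128 aligned coding bases, Actb and Actg1 were the most similar pair (88.7% identical), Acta1 and Actc1 shared 86.2%, and the least similar pairs shared 81.6%. In all, 341 positions (30.2%) varied among the 6 genes.

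The reads were 75 bases long, which bears on how well a read can be assigned to an actin gene. No window of 75 bases in the principal transcripts of Actc1, Acta2 or Actg2 occurred exactly in a transcript of another gene. For Acta1 the shared proportion was 0.437% of windows and for Actb 2.6%. Actg1 stood apart: 54.5% of its windows, and 97.1% of those in its coding sequence, also occurred in transcripts of other symbols, among them the pseudogene Actg-ps1. The sources used here do not give how reads with several matches were counted, so Actg1 is the least certain of the 6. The 12 actin-like and actin pseudogene symbols in the table held 12584 and 8427 counts in the MEF libraries, 2218 and 1016 in those of muscle, and 1551 and 2914 in the transdifferentiated ones. That was 19% to 23% of the Actg1 count in each library.

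The promoters are shown because serum response factor (SRF), the classical regulator of actin genes, binds the CArG box. RefSeq promoter sequences (build GRCm38.p6) matched 4 of the 6 genes. Actb and Actg2 were not matched. Each sequence below runs 5′ to 3′ on the gene's strand within the 250 bases before the RefSeq start. Bases annotated as exon were left out, except in Acta2, for which only the surroundings of each box are shown. Capitals mark CArG boxes, exact or with 1 inner base other than A or T.
Acta1 (chr8:123894776-123895025, minus strand): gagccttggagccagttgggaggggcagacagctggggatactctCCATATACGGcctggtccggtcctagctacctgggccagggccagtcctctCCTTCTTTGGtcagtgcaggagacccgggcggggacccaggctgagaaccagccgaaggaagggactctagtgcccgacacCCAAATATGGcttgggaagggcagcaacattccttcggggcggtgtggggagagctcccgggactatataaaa
Actc1 (chr2:114052888-114053125, minus strand): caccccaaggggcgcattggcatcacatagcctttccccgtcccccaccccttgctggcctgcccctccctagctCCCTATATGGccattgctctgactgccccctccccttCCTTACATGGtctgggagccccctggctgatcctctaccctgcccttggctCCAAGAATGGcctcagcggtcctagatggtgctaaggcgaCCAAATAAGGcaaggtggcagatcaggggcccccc
Actg1 (chr11:120348543-120348745, minus strand): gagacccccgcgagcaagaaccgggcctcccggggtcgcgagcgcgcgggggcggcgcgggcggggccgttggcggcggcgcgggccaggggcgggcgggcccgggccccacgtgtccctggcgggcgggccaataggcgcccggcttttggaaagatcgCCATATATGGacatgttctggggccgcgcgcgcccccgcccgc
Acta2, upstream box (chr19:34255438-34255467, minus strand): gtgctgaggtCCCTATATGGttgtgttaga
Acta2, downstream box (chr19:34255388-34255417, minus strand): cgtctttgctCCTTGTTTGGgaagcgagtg
Acta1 held an exact CArG box at -73 to -64 from the RefSeq start, Actc1 at -47 to -38 and Actg1 at -90 to -81. Acta2 held no exact match in this window and had matches with 1 differing inner base at -84 to -75 and -34 to -25. Acta1 had 2 further matches of that weaker kind and Actc1 had 3. Among 32851 RefSeq promoters of the same length, searched on both strands, 1.47% held an exact CArG box and 7.24% held the weaker kind. CANNTG, the E-box bound by myogenic factors, occurred in 66.2% of all promoters. It was found 2 times in Acta1, 3 times in Acta2, 1 time in Actg1 and not in the Actc1 window. TATAAA occurred in 12.4% of promoters and, of these 4, in Acta1, at -7 to -2. None of these matches overlapped another. RefSeq and GENCODE starts differ: the Acta1 window ends at 123894776, upstream of the GENCODE 5′ end at 123894751. In Acta2, 217 of the 250 bases are annotated as exon, and both boxes lie among them. A match describes the letters and was not tested as a binding site.

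The libraries held between 16817033 and 24584951 counts. The summed level of 8 skeletal muscle markers was 202 and 155 CPM (the library-scaled count given by edgeR) in the MEF libraries, 22700 and 24200 in those of muscle, and 14700 and 19100 in the transdifferentiated ones. All 8 rose against MEF in both groups (median log2 fold change 9.64 in muscle and 9.15 in transdifferentiated cells). The list was chosen with earlier results of these data known, so this is no test of the muscle label. It includes Myod1, and the converting factor was not stated. Over all tested genes 17.3% were called higher in muscle and 15.9% in transdifferentiated cells. Of the 8 fibroblast markers, 7 were lower in muscle than in MEF, beside 18.3% of all tested genes called lower. The summed level of the 8 was 26100 and 15900 CPM in the MEF libraries, 11300 and 5920 in those of muscle, and 9240 and 13500 in the transdifferentiated ones. In muscle, the endothelial markers summed to 1.83 and 0.122 CPM, and the macrophage markers to 3.62 and 1.83 CPM. These are bulk samples, in which fewer cells of a type and less RNA per cell cannot be told apart.

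Fibroblasts made cytoplasmic and smooth muscle type actin in nearly equal parts by counts, and both muscle and transdifferentiated cells made mainly the sarcomeric isoforms. As a share of the summed counts of the 6 actins, Acta1 and Actc1 together took 1.30% and 1.23% in the MEF libraries, 86.8% and 88.5% in those of muscle, and 87.7% and 89.1% in the transdifferentiated ones. The mean share was 1.27% ± 0.0513 in MEF, against 87.7% ± 1.20 in muscle and 88.4% ± 0.969 in transdifferentiated cells (SD, n = 2). The muscle and transdifferentiated libraries overlapped, and neither overlapped MEF. Exact binomial 95% intervals of these shares were at most 0.156 percentage points to either side, which covers counting error only. Acta2 and Actg2 took 47.0% ± 3.35 in MEF, against 7.37% ± 1.13 in muscle and 5.91% ± 0.450 in transdifferentiated cells (SD, n = 2). Actb and Actg1 took 51.7% ± 3.30, 4.94% ± 0.0707 and 5.71% ± 0.519 in the same order. The cytoplasmic share of each transdifferentiated library was above that of both muscle libraries. With 2 libraries against 2, an exact permutation test cannot give a two-sided p below 0.33, so the shares are given as descriptions. Dividing by transcript length moved the sarcomeric share to 1.70% in MEF, against 90.7% in muscle and 91.2% in transdifferentiated cells. Dividing by union exon length put the smooth muscle type share of MEF above the cytoplasmic one, at 52.1% ± 3.27 against 45.9% ± 3.18 (SD, n = 2).

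**Figure D1:**
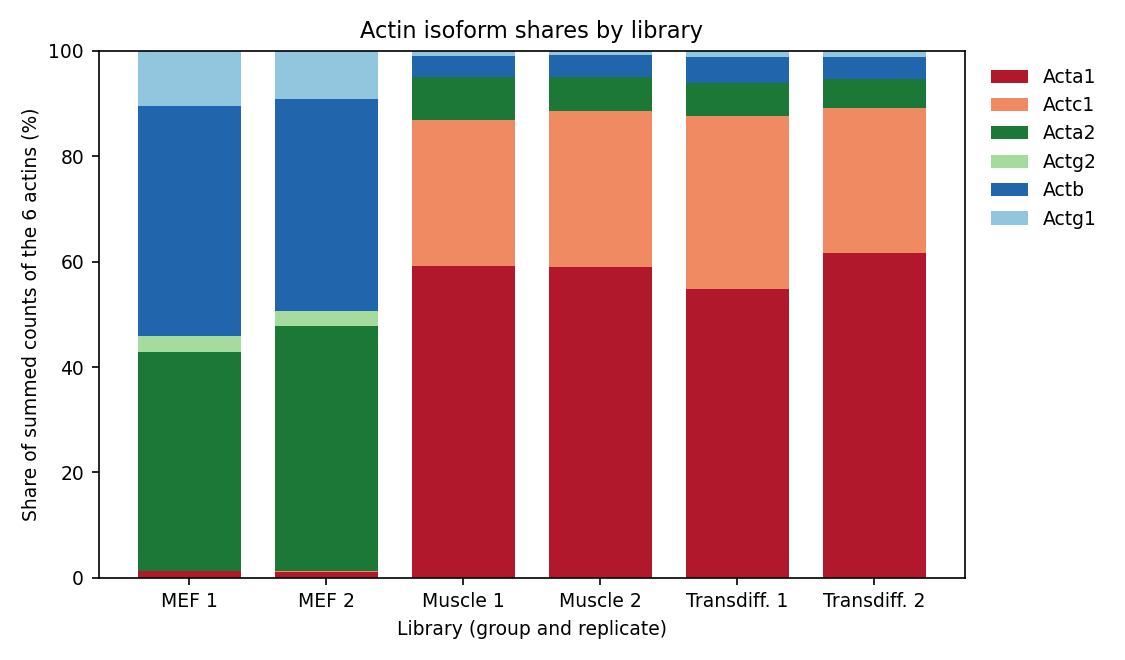
Share of each isoform in the summed counts of the 6 actins (percent, y axis) in each of the 6 libraries (x axis), stacked by gene. Acta1 and Actc1 take 1.23% to 1.30% of the MEF bars and 86.8% to 89.1% of the other 4 bars.

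Within the sarcomeric class, Acta1 led in every group. It took 1.24% and 1.13% of actin counts in the MEF libraries, 59.1% and 58.9% in those of muscle, and 54.8% and 61.7% in the transdifferentiated ones. Actc1 took 0.0665% and 0.106% in the MEF libraries, 27.7% and 29.6% in those of muscle, and 32.8% and 27.4% in the transdifferentiated ones. For both genes the muscle libraries differed from each other by less than the transdifferentiated libraries did. In the transdifferentiated pair, the library with the higher Acta1 share had the lower Actc1 share. Shares of 1 sum constrain each other, and in CPM both genes were higher in that library. Acta1 was at 32273 against 18875 CPM and Actc1 at 14339 against 11303 CPM. The Acta1 to Actc1 ratio in counts was 18.6 and 10.7 in the MEF libraries, 2.13 and 1.99 in those of muscle, and 1.67 and 2.25 in the transdifferentiated ones. The muscle and transdifferentiated ratios overlapped (exact two-sided permutation p = 1.0).

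Acta1, the skeletal thin filament actin, was at 364 and 217 CPM in MEF, 29179 and 23189 CPM in muscle, and 18875 and 32273 CPM in transdifferentiated cells. No MEF library came near the others, and the transdifferentiated libraries lay below and above both muscle libraries. The difference from MEF was 6.49 ± 0.44 in log2 units for muscle (adjusted p = 1.1e-05) and 6.46 ± 0.44 for transdifferentiated cells (adjusted p = 1.43e-05), by edgeR's quasi-likelihood test with Benjamini-Hochberg adjustment over 17400 genes. In mean CPM these were ratios of 90.1 and 88.

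Actc1, the cardiac and embryonic sarcomeric actin, had the largest rise of the 6. It was at 19.6 and 20.4 CPM in MEF, 13691 and 11647 CPM in muscle, and 11303 and 14339 CPM in transdifferentiated cells. It was the scarcest actin in fibroblasts and the second most abundant in the other groups, per transcript length. Muscle exceeded MEF by 9.31 ± 0.34 in log2 units (edgeR adjusted p = 9.44e-07) and transdifferentiated cells did so by 9.33 ± 0.35 (edgeR adjusted p = 1.41e-06), ratios of 634 and 642 in mean CPM. Markers of heart muscle were low in every group: the 8 cardiac markers summed to 16.5 and 13.6 CPM in the MEF libraries, 34.2 and 30.3 in those of muscle, and 39.7 and 36.3 in the transdifferentiated ones, and 3 of them were at 0 in muscle. Of the 6 tested, Myh6, a cardiac myosin heavy chain, was the 1 that rose in muscle and in transdifferentiated cells against MEF, and 4 fell in muscle, where 35.6% of all tested genes were called in either direction. Nppa and Nppb, which encode natriuretic peptides, were at 0.390 ± 0.0711 and 4.73 ± 0.164 CPM in MEF, and 0 and 0.164 ± 0.112 in muscle. In transdifferentiated cells they were at 0.737 ± 0.327 and 5.62 ± 0.556 CPM (SD, n = 2). There they were not called against MEF (edgeR adjusted p = 0.428 and 0.697) and were called higher than in muscle. The Nppa call rested on 44 counts in all 6 libraries and was lost without either muscle library or the second transdifferentiated library (edgeR adjusted p of up to 0.143).

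Acta2, the smooth muscle alpha isoform, had the smallest fall of the 4 actins that fell. It was at 12225 and 8988 CPM in MEF, 4019 and 2581 CPM in muscle, and 2126 and 2908 CPM in transdifferentiated cells. Every MEF library was above the other 4, and the muscle and transdifferentiated libraries overlapped. Acta2 fell by 1.68 ± 0.31 on the log2 scale in muscle (edgeR adjusted p = 0.00323) and fell by 2.08 ± 0.32 in transdifferentiated cells (edgeR adjusted p = 0.00164). Per transcript length it was the third actin of muscle, at 1621 ± 499.6 CPM per kilobase (SD, n = 2).

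Actg2, the enteric smooth muscle isoform, had the largest fall of the 6. It was at 894 and 547 CPM in MEF, 15.2 and 6.76 CPM in muscle, and 17 and 18.1 CPM in transdifferentiated cells. It fell by 6.03 ± 0.48 on the log2 scale in muscle (edgeR adjusted p = 2.7e-05) and fell by 5.36 ± 0.46 in transdifferentiated cells (edgeR adjusted p = 6e-05). In counts, the Acta2 to Actg2 ratio was 13.7 and 16.4 in the MEF libraries, 265 and 382 in those of muscle, and 125 and 161 in the transdifferentiated ones, with no overlap between any pair of groups (exact two-sided permutation p = 0.33 for each, the smallest possible).

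Of 8 other smooth muscle markers, 7 fell in muscle (median -3.73 in log2 units) and 7 fell in transdifferentiated cells (median -3.06). Over all tested genes 18.3% were called lower in muscle and 11.3% in transdifferentiated cells. Myh11, the smooth muscle myosin heavy chain, was at 63.9 ± 4.15 CPM in MEF, against 0.13 ± 0.0044 in muscle and 4.87 ± 0.848 in transdifferentiated cells (SD, n = 2), and the last 2 groups differed (edgeR adjusted p = 0.000249). Cnn1, a calponin of smooth muscle, fell from 343 ± 60.7 CPM in MEF to 13.2 ± 10.2 in muscle and 9.78 ± 0.00106 in transdifferentiated cells (SD, n = 2). Mylk, the myosin light chain kinase, fell against MEF in both and was higher in transdifferentiated cells than in muscle, by 1.04 ± 0.26 in log2 units (edgeR adjusted p = 0.0383). That last call was lost under 4 of 14 alternative analyses. The part of fibroblast or smooth muscle cells in the levels of Acta2 and Actg2 was not tested. Within muscle, the first library was above the second for the summed fibroblast markers and the summed smooth muscle markers (452 against 319 CPM for the latter). It was also above the second for all 6 actins, with Acta1 at 29179 against 23189 CPM and Actc1 at 13691 against 11647 CPM. The summed skeletal muscle markers went the other way, at 22700 CPM in the first muscle library and 24200 in the second.

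Actb and Actg1, the cytoplasmic actins, fell together. Actb was at 12803 and 7759 CPM in MEF, 2007 and 1599 CPM in muscle, and 1682 and 2180 CPM in transdifferentiated cells. It fell by 2.51 ± 0.32 on the log2 scale in muscle (edgeR adjusted p = 0.000411) and fell by 2.41 ± 0.32 in transdifferentiated cells (edgeR adjusted p = 0.000721). Actg1 was at 3085 and 1779 CPM in MEF, 456 and 325 CPM in muscle, and 409 and 617 CPM in transdifferentiated cells. The muscle and transdifferentiated libraries overlapped for both genes, and all MEF libraries were higher. Actg1 fell by 2.64 ± 0.36 on the log2 scale in muscle (edgeR adjusted p = 0.000627) and fell by 2.24 ± 0.36 in transdifferentiated cells (edgeR adjusted p = 0.00198). The Actb to Actg1 ratio in counts was 4.15 and 4.36 in the MEF libraries, 4.4 and 4.92 in those of muscle, and 4.11 and 3.53 in the transdifferentiated ones. Actb is a common reference gene for expression assays. Here its mean CPM was 5.7 times as high in MEF as in muscle and 5.32 times as high in MEF as in transdifferentiated cells.

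**Figure D2:**
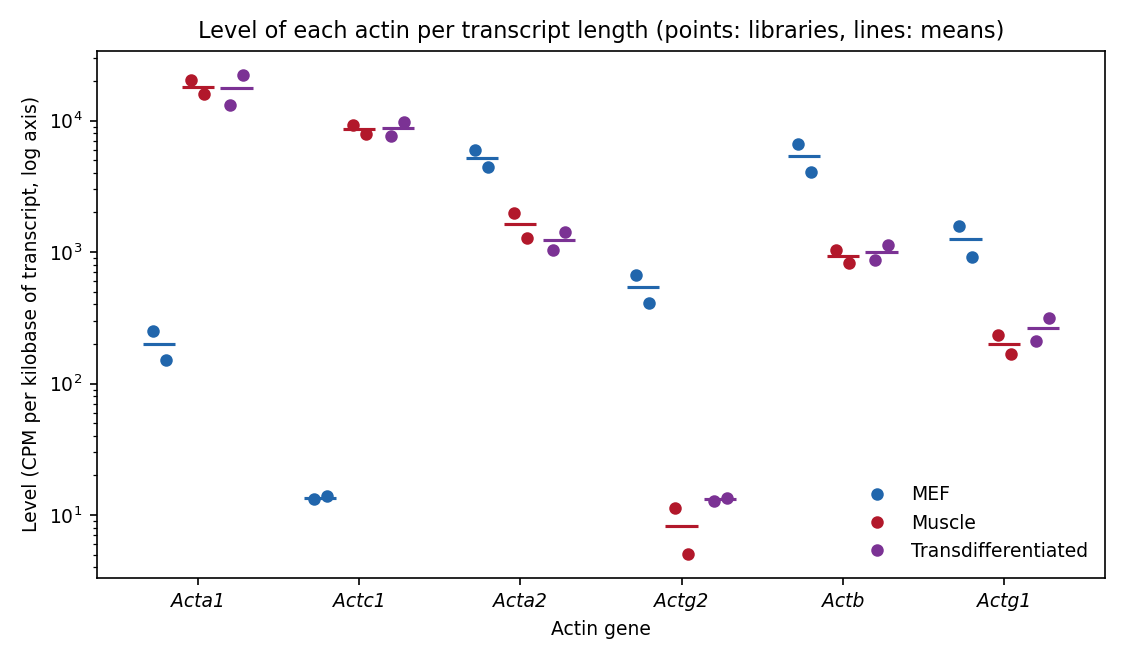
Level of each actin in CPM per kilobase of its principal transcript (y axis, log scale) for each gene (x axis), with points for libraries, lines for the means of 2 libraries, and colours for groups. The muscle and transdifferentiated points lie at like heights for each gene, and MEF points lie below them for Acta1 and Actc1 and above them for the other 4.

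In sum, 6 of 6 actins were called in muscle against MEF, 2 higher and 4 lower, beside 35.6% of all tested genes called in either direction. The same 2 and 4 were called in transdifferentiated cells against MEF, beside 27.3% of all tested genes. The median log2 fold change of the 6 was -2.1 in muscle and -2.16 in transdifferentiated cells, and that of all tested genes was 0 and 0.07. These comparisons share the MEF libraries, so their likeness is not independent. All 6 calls held in each of 14 alternative analyses of each comparison.

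Between transdifferentiated cells and muscle, 0 of 6 actins were called by edgeR, 0 had an unadjusted p under 0.05, and DESeq2 called 0, beside 7.58% of all tested genes called higher and 2.46% called lower by edgeR. The intervals of the differences are what the data allow. For Acta1 the difference was -0.03 in log2 units (95% interval -0.82 to 0.75) and for Actc1 0.02 (-0.53 to 0.56). For Acta2 it was -0.39 (-1.08 to 0.30), for Actb 0.10 (-0.58 to 0.78) and for Actg1 0.39 (-0.38 to 1.17). For Actg2 the difference was 0.67 (-0.23 to 1.57, edgeR adjusted p = 0.408). Both transdifferentiated libraries were above both muscle libraries for this gene, while the libraries overlapped for the other actins. Such a separation of 2 libraries from 2 is weak evidence, since an exact permutation test cannot give a two-sided p below 0.33. The muscle libraries held only 356 and 111 Actg2 counts. The signs for Acta1, Actc1 and Actb turned under some alternatives.

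**Figure D3:**
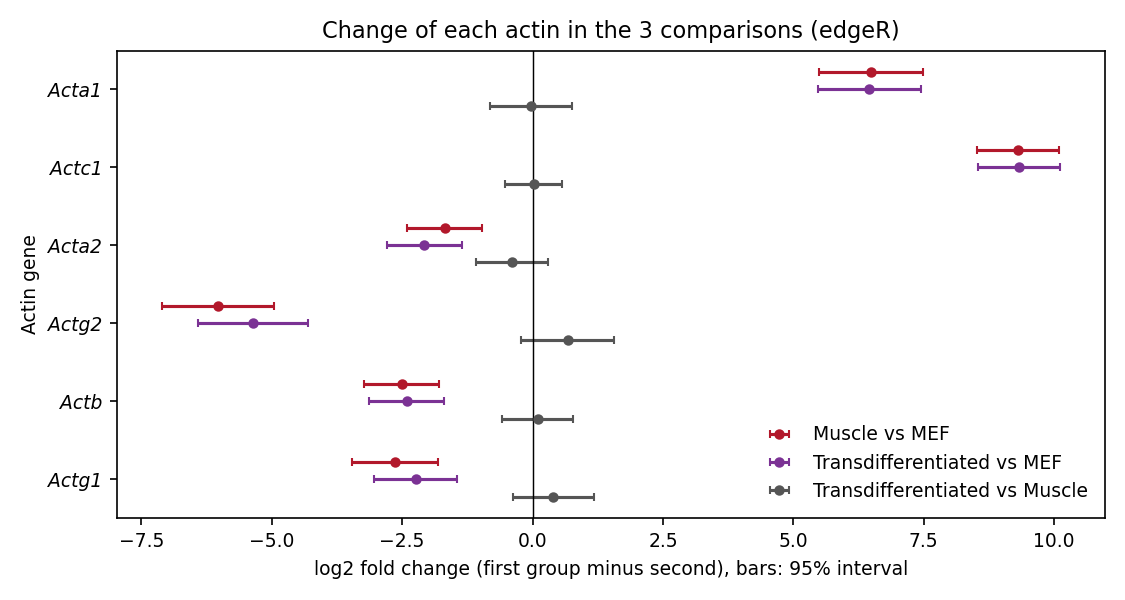
log2 fold change of each actin (x axis) for each gene (y axis) in the 3 comparisons, with bars for 95% intervals from edgeR. The intervals against MEF stay clear of 0 for all 6 genes, and those between transdifferentiated cells and muscle include 0 for all 6.

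The order of the isoforms, per transcript length, was Actb and Acta2, Actg1, Actg2, Acta1 and Actc1 in MEF. Actb (5355 ± 1857 CPM per kilobase) and Acta2 (5212 ± 1125) did not differ beyond their spread (SD, n = 2), and their order turned between the libraries. That tie depends on the length used: per union exon length Acta2 took 45.2% and 50.1% of the summed actins in the MEF libraries, against 38.8% and 35.5% for Actb, without overlap. Every other neighbour in MEF was separated without overlap. In muscle the order was Acta1, Actc1, Acta2, Actb, Actg1 and Actg2, with no overlap between neighbours, from 18108 ± 2929 CPM per kilobase for Acta1 to 8.23 ± 4.47 for Actg2. Transdifferentiated cells had that same order. Only Acta2 (1237 ± 272) and Actb (1006 ± 183) overlapped across their libraries there, with Acta2 above Actb in both. The Acta2 to Actb ratio in counts was 0.955 and 1.158 in the MEF libraries, 2.003 and 1.614 in those of muscle, and 1.264 and 1.334 in the transdifferentiated ones, so that it was highest in muscle. The Acta1 to Actb ratio was 0.0284 and 0.0280 in MEF, 14.5 in both muscle libraries, and 11.2 and 14.8 in the transdifferentiated ones.

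The summed level of the 6 actins was higher in the muscle and transdifferentiated libraries than in MEF, without overlap. The 6 actins took 2.81% and 2.1% of all counts in the MEF libraries, 4.71% and 3.81% in those of muscle, and 3.64% and 5.13% in the transdifferentiated ones. In CPM the sum was 1.82 times as high in muscle as in MEF and 1.78 times as high in transdifferentiated cells (exact two-sided permutation p = 0.33 for each, the smallest possible). Replicates of a group differed as well: the first muscle library was above the second for all 6 actins, and the second transdifferentiated library was above the first for all 6. Unlike in the comparisons with MEF, Acta1 and Actc1 there moved in the same direction as the other actins. The first MEF library was above the second for each actin but Actc1.

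The sarcomere thin filament list (troponins, tropomyosins, nebulin, leiomodins and their partners) rose in 18 of 19 tested genes in both comparisons with MEF, with medians of 9.34 in muscle and 8.76 in transdifferentiated cells. Over all tested genes 17.3% were called higher in muscle and 15.9% in transdifferentiated cells. By unadjusted p the fast troponins Tnnt3 and Tnni2 came first in both comparisons, without the largest fold changes of the list. Other list genes, Actn2 among them, tied with both in edgeR adjusted p (9.44e-07 in muscle and 1.41e-06 in transdifferentiated cells). Tnnt3 was at 2.64 ± 0.386 CPM in MEF, against 1862 ± 198 in muscle and 1691 ± 46.7 in transdifferentiated cells, and Tnni2 at 2.39 ± 0.263, 1652 ± 159 and 1765 ± 275 CPM (SD, n = 2). Tpm1, a tropomyosin made in many cell types, was the exception, at 0.31 ± 0.23 in muscle (edgeR adjusted p = 0.325) and 0.05 ± 0.23 in transdifferentiated cells (edgeR adjusted p = 0.896), in log2 units. Against muscle, 3 of 19 were lower in transdifferentiated cells and 0 higher, beside 2.46% of all tested genes called lower. They were Neb, which encodes nebulin (log2 difference -1.63 ± 0.36, edgeR adjusted p = 0.0214), Tnni1, the slow troponin I, and Nrap, which anchors thin filaments. These 3 calls are fragile: 5 were found without the first MEF library, 1 without either the first muscle or the first transdifferentiated library, and 0 without the second muscle library.

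Stress fibre and cortical actin partners moved the other way. Of 15 tested genes, 10 fell and 0 rose in muscle, and the counts were the same in transdifferentiated cells, with a median of -1.64 in each, beside 18.3% and 11.3% of all tested genes called lower. Myh10, a nonmuscle myosin, fell by 2.27 ± 0.25 on the log2 scale in muscle, and Lasp1, a focal adhesion protein, fell by 3.19 ± 0.31 in transdifferentiated cells. Flna, the filamin that cross-links actin, went from 2422 ± 516 CPM in MEF to 319 ± 90.6 in muscle and 363 ± 109 in transdifferentiated cells (SD, n = 2). Between transdifferentiated cells and muscle edgeR called 0 of the 15, beside 7.58% of all tested genes called higher and 2.46% called lower. Of the 15, 1 had an unadjusted p under 0.05 there and DESeq2 called 0.

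The Arp2/3 complex, which nucleates branched actin filaments, fell in 7 of 10 tested subunits and rose in 1 in muscle (median -0.91), and fell in 6 and rose in 0 in transdifferentiated cells (median -0.81), beside 18.3% and 11.3% of all tested genes called lower. Arpc1b went from 495 ± 89.3 CPM in MEF to 90.3 ± 22.4 in muscle and 141 ± 31.3 in transdifferentiated cells (SD, n = 2). Arpc4 and Arpc5 fell in both comparisons. Actr3b, a variant subunit, was the 1 that rose in muscle, by 1.45 ± 0.48 in log2 units (edgeR adjusted p = 0.044), a call lost in 8 of 13 alternatives. The muscle count came to 4 without the second muscle library and 5 without the first muscle, the second MEF or the second transdifferentiated library, and the transdifferentiated count to 3 without the second transdifferentiated library. Between transdifferentiated cells and muscle edgeR called 0 subunits, beside 7.58% of all tested genes called higher and 2.46% called lower. Of the subunits, 0 had an unadjusted p under 0.05 there and DESeq2 called 0.

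Among 19 genes of monomer binding, capping and turnover, 10 fell and 3 rose in each comparison with MEF, with medians of -0.99 in muscle and -0.97 in transdifferentiated cells, beside 35.6% and 27.3% of all tested genes called in either direction. Those that rose were Cfl2, Cap2 and Twf2. Cofilins sever and depolymerise filaments. Cfl1, the widely made cofilin, was at 1549 and 1049 CPM in MEF, 277 and 231 CPM in muscle, and 304 and 373 CPM in transdifferentiated cells. Cfl2, the muscle cofilin, was at 111 and 186 CPM in MEF, 529 and 840 CPM in muscle, and 750 and 436 CPM in transdifferentiated cells. So the MEF libraries were highest for Cfl1 and lowest for Cfl2, without overlap. Cfl1 fell by 2.36 ± 0.28 on the log2 scale in muscle and fell by 1.94 ± 0.28 in transdifferentiated cells, and Cfl2 rose by 2.21 ± 0.39 and 2.0 ± 0.38.

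The cyclase-associated proteins, which recycle actin monomers, showed the same exchange. Cap1 was at 898 and 731 CPM in MEF, 140.0 and 111 CPM in muscle, and 152 and 180.0 CPM in transdifferentiated cells. Cap2, the isoform of striated muscle, was at 13.6 and 17.1 CPM in MEF, 319 and 316 CPM in muscle, and 433 and 422 CPM in transdifferentiated cells. Cap1 fell by 2.70 ± 0.27 on the log2 scale in muscle (edgeR adjusted p = 8.97e-05), and Cap2 rose by 4.37 ± 0.27 in muscle (edgeR adjusted p = 6.02e-06) and by 4.80 ± 0.27 in transdifferentiated cells (edgeR adjusted p = 5.44e-06). The profilins, which load monomers onto growing ends, showed no such exchange. Pfn1 was at 1390 ± 465 CPM in MEF, against 699 ± 199 in muscle and 710 ± 188 in transdifferentiated cells (SD, n = 2), with an edgeR adjusted p of 0.0471 in muscle that was lost in 6 of 14 alternatives. Pfn2 was at 39.5 ± 8.72 CPM in MEF, against 16.6 ± 2.28 in muscle and 31.7 ± 8.74 in transdifferentiated cells (SD, n = 2), and it fell in muscle (edgeR adjusted p = 0.0133), a call lost without either muscle library or the second MEF library. Twf2, a twinfilin, rose by 1.91 ± 0.31 in muscle and 1.79 ± 0.31 in transdifferentiated cells on the log2 scale. Dstn, a relative of the cofilins, fell by 2.43 ± 0.30 and fell by 2.83 ± 0.30 in the same order. Between transdifferentiated cells and muscle edgeR called 0 of the 19, beside 7.58% of all tested genes called higher and 2.46% called lower. Of the 19, 3 had an unadjusted p under 0.05 there and DESeq2 called 0.

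**Figure D4:**
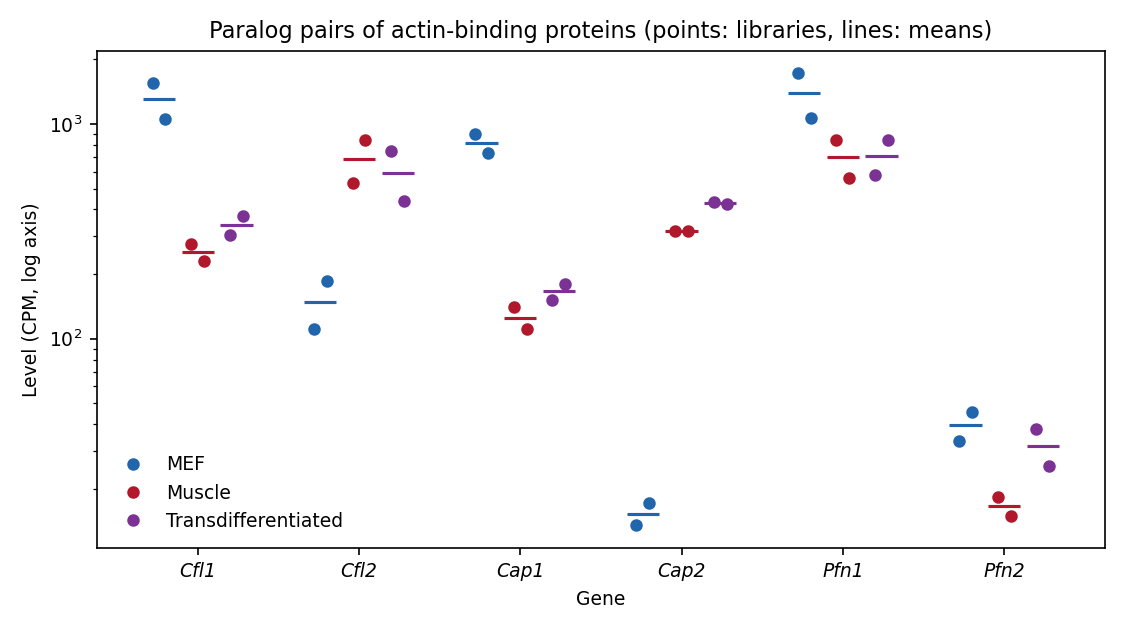
CPM (y axis, log scale) of 3 pairs of related actin-binding genes (x axis), with points for libraries, lines for means of 2 libraries, and colours for groups; heights are to be compared between groups within a gene. MEF points are highest for Cfl1 and Cap1 and lowest for Cfl2 and Cap2, and no such exchange is seen for Pfn1 and Pfn2.

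The list of genes that fold and modify actin held the chaperonin TRiC, prefoldin, Setd3, which methylates a histidine of actin, and Naa80, which acetylates its N terminus. Among all tested genes, edgeR called 35.6% in muscle and 27.3% in transdifferentiated cells against MEF in either direction, with medians of 0 and 0.07. Of this list it called 0 of 16 in muscle against MEF (median 0.30) and 0 of 16 in transdifferentiated cells against MEF (median 0.34). In each of these, 3 genes had an unadjusted p under 0.05 and DESeq2 called 0. The smallest adjusted p values belonged to Pfdn5 in muscle (log2 difference 0.65 ± 0.23, edgeR adjusted p = 0.0597) and Setd3 in transdifferentiated cells (0.68 ± 0.24, edgeR adjusted p = 0.069). Without either MEF library, or without the first transdifferentiated library, 1 gene was called higher in muscle, and without the second MEF library 1 was called higher in transdifferentiated cells. Between transdifferentiated cells and muscle edgeR called 0, beside 7.58% of all tested genes called higher and 2.46% called lower. Of the list, 0 had an unadjusted p under 0.05 there and DESeq2 called 0.

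**Figure D5:**
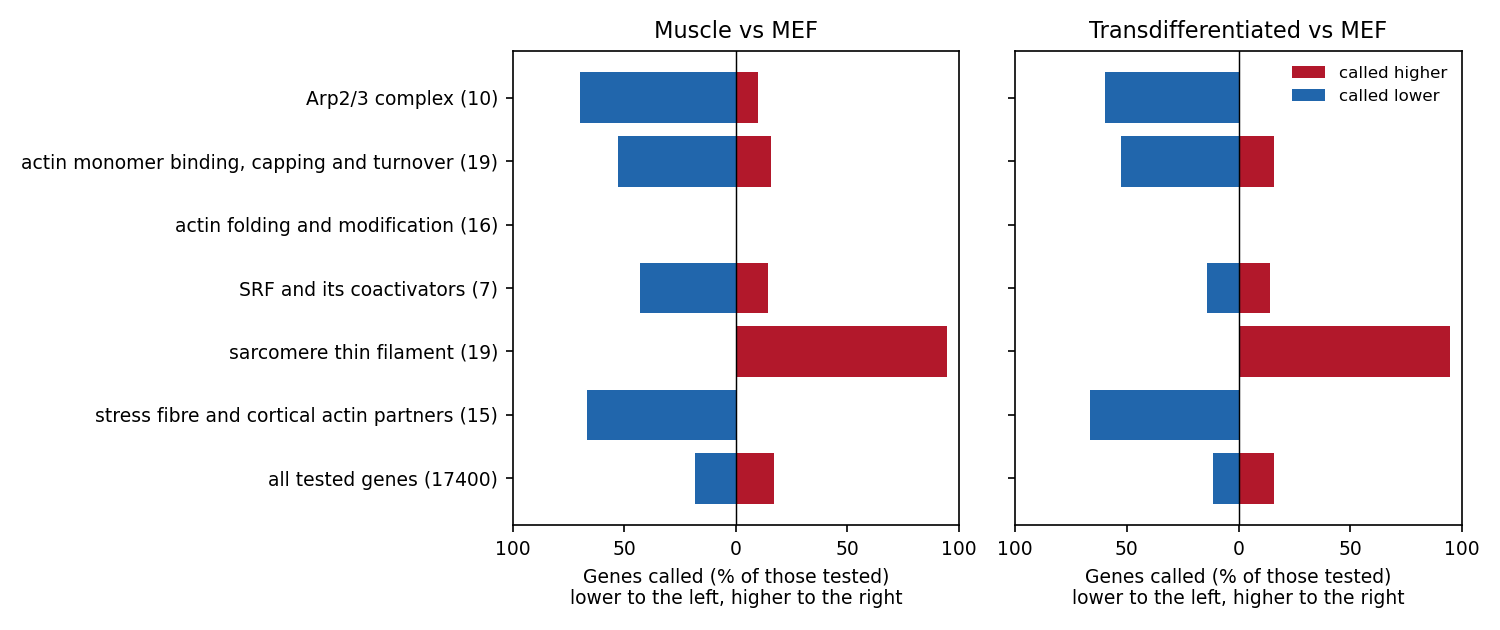
Share of tested genes called lower (to the left) and higher (to the right) by edgeR at an adjusted p under 0.05 (x axis, percent) in 6 lists of actin-related genes and over all tested genes (y axis, number tested in brackets), for muscle and transdifferentiated cells against MEF. The thin filament list lies to the right (18 of 19 genes in both panels), the stress fibre list to the left (10 of 15), and the folding list has no bar.

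Srf, coactivators of SRF and related genes formed a list of 7 tested genes. They were Srf, Mrtfa, Mrtfb, Myocd, Abra, Scai and Fhl2, so the list was not limited to activators of actin genes. Srf itself was at 134 and 59.7 CPM in MEF, 48.1 and 32.2 CPM in muscle, and 36.2 and 70.5 CPM in transdifferentiated cells. It was not called in muscle (log2 difference -1.27 ± 0.45, edgeR adjusted p = 0.0578) or in transdifferentiated cells (-0.86 ± 0.45, edgeR adjusted p = 0.197), and 7 of 14 alternatives called it lower in muscle. Mrtfa, whose protein is held in the cytoplasm by actin monomers, gave -1.21 ± 0.45 (edgeR adjusted p = 0.0656) and -1.35 ± 0.45 (edgeR adjusted p = 0.0555), and 7 of 14 alternatives called it in muscle and 5 of 14 in transdifferentiated cells. Abra, the striated muscle activator of this pathway also called STARS, rose from 0.110 and 0.680 CPM in MEF to 70.3 and 86.2 CPM in muscle and 150 and 134 CPM in transdifferentiated cells. Its rise was 7.56 ± 0.55 in muscle (edgeR adjusted p = 1.68e-05) and 8.42 ± 0.56 in transdifferentiated cells (edgeR adjusted p = 1.35e-05). Fhl2, a LIM protein that binds SRF, fell by 1.58 ± 0.26 on the log2 scale in muscle and fell by 2.1 ± 0.27 in transdifferentiated cells. Mrtfb fell by 1.06 ± 0.26 in muscle (edgeR adjusted p = 0.0118), a call lost without either muscle library.

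Myocd, the coactivator of smooth and cardiac muscle, was low in all groups, at 2.53 and 1.07 CPM in MEF, 0.213 and 0.122 CPM in muscle, and 1.52 and 1.55 CPM in transdifferentiated cells. Muscle had less of it than MEF (edgeR adjusted p = 0.00697), a call lost without the second muscle library. It was higher in transdifferentiated cells than in muscle (edgeR adjusted p = 0.0282), a call lost without either muscle library or the second transdifferentiated library. In all, 3 of the 7 genes fell and 1 rose in muscle (median -1.21), beside 35.6% of all tested genes called in either direction. In transdifferentiated cells 1 fell and 1 rose (median -0.61), a share near the 27.3% called over all tested genes. Without the second muscle library 2 were called in muscle. Without the second MEF library or either transdifferentiated library all 7 were, as with DESeq2, and without the second MEF library 4 were in transdifferentiated cells.

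Markers of other cells moved between the groups as well. The 8 macrophage markers summed to 49.6 and 36.7 CPM in the MEF libraries, 3.62 and 1.83 in those of muscle, and 409 and 422 in the transdifferentiated ones. All 8 were higher in transdifferentiated cells than in both other groups. Of all tested genes, 15.9% were called higher there against MEF and 7.58% against muscle. Of 8 fibroblast markers, transdifferentiated cells had 3 lower and 1 higher than MEF, beside 27.3% of all tested genes called in either direction. They had 5 higher than muscle, beside 7.58% of all tested genes called higher. Of 5 endothelial markers, 4 fell in muscle and 1 in transdifferentiated cells against MEF, beside 18.3% and 11.3% of all tested genes called lower. Against muscle, 2 of the 5 were higher in transdifferentiated cells, beside 7.58% of all tested genes. Of 5 pericyte markers, 1 rose and 2 fell in muscle and 1 rose and 1 fell in transdifferentiated cells, beside 35.6% and 27.3% of all tested genes called in either direction against MEF. The 1 that fell in transdifferentiated cells was Rgs5 (log2 difference -1.27 ± 0.40, edgeR adjusted p = 0.0429), a call lost in 10 of 13 alternatives, among them each that left out 1 library. Against muscle, 1 pericyte marker was higher in transdifferentiated cells and 1 lower, beside 7.58% and 2.46% of all tested genes. The lower 1 was again Rgs5, a call lost in 5 of 13 alternatives. Their part in the levels of the cytoplasmic and smooth muscle type actins was not tested.

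For each actin, the genes with the most similar pattern were sought among 7352 tested genes at a mean of 20 CPM or more, by the root mean square difference of centred log2 CPM over the 6 libraries. Camk2a (0.101) was nearest to Acta1, followed by Afap1l1 (0.166) and Shisa2 (0.168). Smyd1 (0.142), Tnnt3 (0.196) and Trp63 (0.229) were nearest to Actc1. For Acta2 they were Azin2 (0.095), Rnf24 (0.105) and Frmd8 (0.111). Actg2 had the least close neighbours, Cnn1 (0.548), Gm2115 (0.575) and Cyp1b1 (0.709). Tspan4 (0.072), Kirrel (0.119) and Vat1 (0.136) were nearest to Actb, and Fscn1 (0.051), Mov10 (0.076) and Vat1 (0.097) to Actg1. Vat1 was thus among the nearest for both cytoplasmic actins. Camk2a was at 4.21 ± 1.21 CPM in MEF, against 377 ± 21.6 in muscle and 360 ± 158 in transdifferentiated cells, and Fscn1 at 799 ± 327, 125 ± 22.7 and 168 ± 56.9 CPM (SD, n = 2). With 6 libraries in 3 groups, such likeness describes mainly the group levels.

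The authors' deposited table of a comparison listed 5 of the 6 actins. Its header names no contrast, and its sign was that of MEF over muscle for all 2645 listed genes tested here. In the authors' deposited table Acta1 had a log2 fold change of -6.12 (SE 0.812) and Actc1 of -9.19 (SE 0.241). The authors' deposited table gave 5.05 (SE 1.56) for Actg2, 2.50 for Actb and 2.61 for Actg1. Acta2 was not among the 2806 genes listed, which reach down to a log2 fold change of 2.0 in size, and its difference here was -1.68 (muscle minus MEF).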

How the data were processed

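RNA of 2 MEF, 2 muscle and 2 transdifferentiated samples was made into Lexogen SENSE mRNA-seq V2 libraries and sequenced as single reads of 75 bases on a NextSeq 500, per the labels' protocols. The deposited count table holds integer read counts by gene symbol, not normalized. Among the tools in the submitters' processing notes are featureCounts 1.6.2, HISAT2 2.1.0, DESeq2 1.26.0 and Trim Galore 0.6.0, with the build mm10. The sources used here do not give the annotation, the strand setting or the treatment of reads with several matches. The authors also deposited log2 fold changes with standard errors, p-values and adjusted p-values for 2806 genes, per the file headers; that table's mean over libraries was not used.

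Here counts were fitted with edgeR 4.0.16 (R 4.3.3): filterByExpr by group at a minimum count of 10, which left 17400 genes, TMM scaling, a robust quasi-likelihood model (legacy dispersion) with group as its term over all 6 libraries, 3 residual degrees of freedom, and Benjamini-Hochberg adjustment over all tested genes. The threshold for a call was an adjusted p of 0.05. The biological coefficient of variation was 27.3%. CPM come from edgeR's cpm function with TMM factors, and per-length levels divide them by the principal GENCODE M21 transcript. Standard errors are the log2 fold change divided by the root of the F statistic. Intervals of shares are exact Clopper-Pearson intervals (SciPy 1.17.1) and cover counting error only. The fitting script was tested on simulated data.

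The members and the 13 gene lists (136 genes) were chosen with earlier results of these data known. Genes were named from this rule: for each list and comparison, the 2 with the smallest unadjusted p and up to 2 called against the list's majority, the cofilin, profilin and cyclase-associated pairs, Srf, Mrtfa, Mrtfb, Myocd and Abra, and the 3 nearest genes of each actin. Lists of cell type markers other than smooth muscle and cardiac ones are given mainly as counts and sums, and some genes the rule picked in the other lists go unnamed. Tpm1 and Nrap were named after their values were seen. Alternatives were RLE scaling, library totals, other filters, DESeq2 1.42.0, the edgeR 4 fit, 2-group fits, a replicate block and leaving out each library. List counts were not taken with the other filters or the 2-group fits.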

Additional observations from a re-analysis of the deposited data

How the results depend on the processing

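All 84 member fold changes against MEF (6 genes in 14 alternatives) kept their direction and call in muscle, and so did all 84 in transdifferentiated cells. The numbers of actins called stayed at 6, 6 and 0. Between transdifferentiated cells and muscle, signs near 0 turned in 9 of 84, all uncalled. With library totals Acta1 was at 0.0367 (log2), and leaving out a library each gave -0.48 to 0.30 for Acta1, -0.17 to 0.18 for Actc1 and -0.11 to 0.28 for Actb. Actc1 was at -0.0095 with RLE scaling and -0.0079 with DESeq2. The cause was not tested. Library totals moved the median of all genes in that comparison from 0.029 to 0.113.

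The sarcomeric share moved to 1.95%, 91.5% and 92.1% (MEF, muscle, transdifferentiated) per union exon length and to 1.70%, 90.7% and 91.2% per transcript length, since the transcripts of Acta1 and Actc1 are shorter than those of Acta2, Actb and Actg1. Per union exon length, Acta2 was above Actb in both MEF libraries.

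Replicate numbers did not pair the samples: deviations of same-numbered libraries correlated at 0.314 (MEF and muscle), -0.529 (MEF and transdifferentiated) and -0.291 (muscle and transdifferentiated). With a replicate block the actins called stayed at 6, 6 and 0. Over all genes the block gave 2512 higher and 2655 lower in muscle against MEF, 2187 and 1377 in transdifferentiated cells against MEF, and 1027 and 265 between transdifferentiated cells and muscle, beside 3009 and 3189, 2769 and 1973, and 1319 and 428. Without a muscle library the last comparison gave 743 and 165 (first) or 589 and 140 (second).

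Of 143 list counts per comparison, 16 (muscle against MEF), 13 (transdifferentiated cells against MEF) and 27 (transdifferentiated cells against muscle) moved by over 1.5 times. Genes called with each library left out ranged, in muscle against MEF, from 4 to 6 for Arp2/3, 2 to 7 for SRF, 0 to 1 for folding and 2 to 5 for cardiac markers. In transdifferentiated cells against MEF they ranged from 3 to 5, 2 to 4, 0 to 1 and 1 to 1 for these lists, and from 1 to 2 for endothelial and pericyte markers. Against muscle the ranges were 0 to 1 for SRF and skeletal markers, 0 to 5 for the thin filament, 1 to 3 for smooth muscle and endothelial, 1 to 2 for cardiac and pericyte, and 3 to 5 for fibroblast markers. The replicate block gave 5 and 3 Arp2/3 genes against MEF, 1 pericyte gene in transdifferentiated cells against MEF, and 1 gene each of the thin filament, smooth muscle and pericyte lists against muscle. DESeq2 called 7 SRF genes in muscle and 1 skeletal marker between transdifferentiated cells and muscle, library totals 1 pericyte gene and the edgeR 4 fit 2 endothelial genes in transdifferentiated cells against MEF.

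The lowest count of an actin in a library was 111.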
